A study of Colocasia esculenta with 9 samples.

Results

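Close divergent gene pairs are neighbouring gene models that point away from each other and lie at most 1000 bp apart. Gene models were sorted along each scaffold by their smallest start, and consecutive, non-overlapping models were kept where the left one lay on the minus strand, the right one on the plus strand and the gap between them was at most 1000 bp. The rule used positions only and no expression value. It gave 461 pairs with 922 gene models, or 4.57% of the 10089 divergent pairs, and 1.06% of the 43385 consecutive non-overlapping pairs of any orientation formed by 57034 gene models. The comparison set was the 7935 divergent pairs over 5000 bp apart.

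Leaf RNA of taro (Colocasia esculenta), an aroid grown for its corms and leaves, was sequenced in 9 libraries, 3 for each of the cultivars Sam-07 (also Samasama), Palau 10 (also Ngerruuch) and Niue. Plants of all 3 cultivars were in the vegetative stage, started as tissue culture plantlets, and were kept in potting mix for 8 months with 12 h of light a day, a humidity of 85% and a temperature of 27 °C. The 2 youngest leaves gave the RNA, and no treatment separated the groups. The labels do not say that replicates were separate plants, and the spread that p-values measure is that between these samples only and may be technical.

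In a divergent pair both genes start at the inner ends and are read outwards, so a short stretch of DNA lies upstream of both. In plants and other eukaryotes such a stretch can act as a bidirectional promoter, from which both genes are transcribed, and head-to-head neighbours have often been examined for joint expression. A promoter can also favour one direction, and neighbours can keep separate promoters within a short gap.

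Names and products of the gene models are not in the files used here, so pairs are given by identifier and position, roles are not given, and leaf marker genes could not be checked. Gaps were measured between annotated gene models and not between measured transcription starts. Fragment counts per library ranged from 5468567 to 18175384, and the 922 members took 0.973% to 1.53% of them. Fragments were counted without regard to strand, so RNA from the opposite strand on a member's exons counts for that member. Levels are in CPM, fragments scaled to a library total of 1e6, and are divided by exon length (CPM per kb) wherever 2 genes are compared. In leaf RNA as a whole, fewer expressing cells and less RNA per cell cannot be told apart. In each cultivar 1 library stood apart by the chi-square per degree of freedom between its counts and those of the others, a measure that also grows with depth. It was 228.8 and 176.3 for Sam-07 replicate 2, against 51.7 between the other Sam-07 libraries. It was 243.6 and 260.2 for Palau 10 replicate 3, against 41.4 between the others, and 114.8 and 242.2 for Niue replicate 2, against 35.7 between the others.

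The gaps of the 461 pairs ran from 4 to 1000 bp, with a median of 459 bp and quartiles of 206 and 773 bp. The pairs lay on 438 scaffolds, with at most 2 on a scaffold, and no gene model belonged to more than 1 pair. Another gene model overlapped the span of 49 pairs. The members had a median exon length of 850 bp in 3 exons, against 867 bp in 3 exons for members of far divergent pairs. At the threshold itself, the pair just inside (Taro_003108 and Taro_003109, gap 1000 bp) averaged 4.29 and 86.0 CPM, and the pair just outside (Taro_035173 and Taro_035174, gap 1002 bp) had 0 fragments in both members.

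More close divergent pairs than far ones had both members expressed. A gene model was taken as expressed where its mean over all libraries reached 1 CPM. Both members were expressed in 94 close pairs, 20.4% (95% exact binomial interval 16.8 to 24.4), against 953 far pairs, 12.0% (11.3 to 12.8). These intervals and the floors given below cover counting error only, and neighbouring pairs are not independent of each other. Exactly 1 member was expressed in 143 close pairs (31.0%), against 34.0% of far pairs, and neither in 224 close pairs (48.6%), against 54.0% of far pairs. Among the pairs with neither were 146 close pairs (31.7%) with 0 fragments for both members in all 9 libraries, against 36.8% of all far pairs.

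Part of this difference lay in the single members. Of the 922 members, 331 were expressed (35.9%), 201 had a lower level and 390 had 0 fragments (42.3%, against 51.3% of all gene models). The expressed share was 29.0% among members of far divergent pairs and 31.1% among all gene models. Where the left member was expressed, the right one was expressed in 55.6% of 169 close pairs, and in 42.0% of 2268 far pairs. Where the left member was not expressed, the right one was expressed in 23.3% of 292 close pairs and 24.4% of 5667 far pairs. In the other close orientations, both members were expressed in 18.6% of 2285 same-strand pairs and in 46.6% of 792 convergent pairs. Members of convergent pairs face each other. The expressed share of single members was 27.9% in the same-strand and 59.85% in the convergent pairs. In same-strand pairs, the right member was expressed in 65.9% of 643 pairs with an expressed left member. Where the left member was not expressed, the share was 12.6% of 1642 pairs. The convergent shares were 77.2% of 478 and 32.2% of 314 pairs in the same order. A right member expressed more often beside an expressed left one was thus not particular to divergent pairs.

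**Figure D1:**
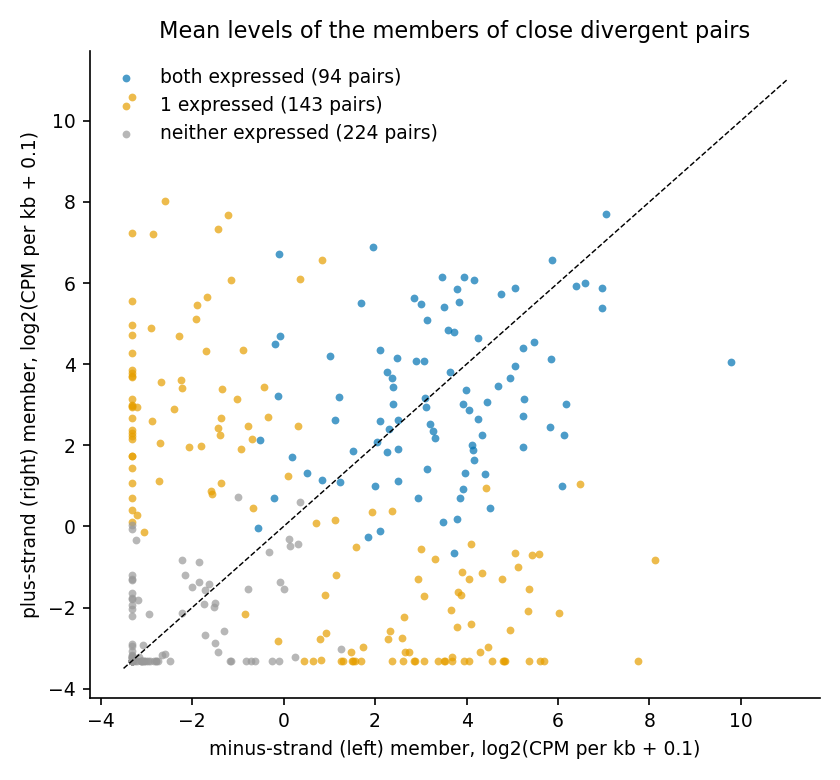
Mean levels over 9 libraries of the left (x axis) and right (y axis) member of each close divergent pair, in log2(CPM per kb + 0.1), coloured by how many members were expressed. The 94 pairs with both members expressed fill the upper right without lying on the line of equal levels. In 53 of the 143 pairs with 1 expressed member, the other member had 0 fragments.

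The higher joint expression of close pairs was present in each library taken alone. The share of close pairs with both members at 1 CPM or more was 19.3%, 19.7% and 18.4% in Sam-07 replicates 1, 2 and 3. The Palau 10 values for replicates 1, 2 and 3 were 18.4%, 18.4% and 19.3%, and the Niue values for replicates 2, 3 and 4 were 19.1%, 21.5% and 22.1%. In far pairs the share ran from 10.7% to 12.5% over the 9 libraries, so the lowest close value lay above the highest far value. The difference, close minus far, averaged 8.18 ± 1.05 percentage points (SD, n = 9) and was above 0 in 9 of 9 libraries (exact two-sided sign-flip permutation p = 0.0039, adjusted over 2 values 0.0039, the smallest these 9 libraries can give). All libraries share the same gene models, so this test covers the spread between libraries and not that between pairs.

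**Figure D2:**
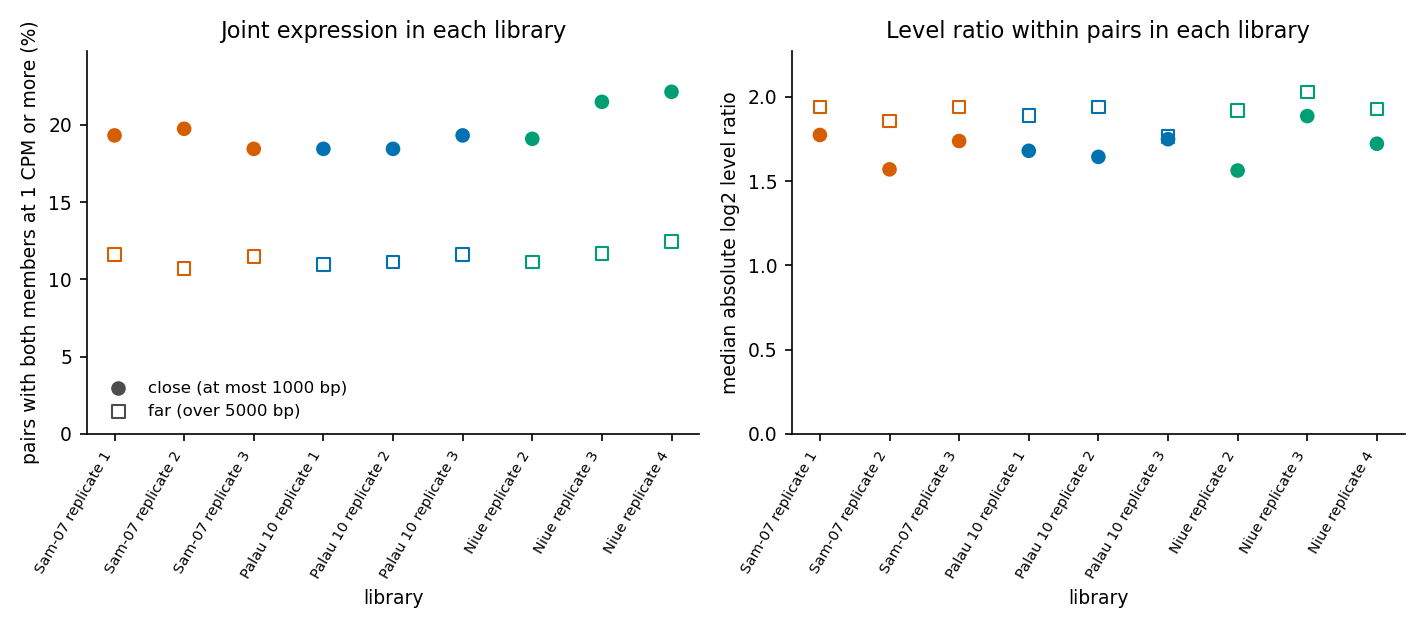
Share of pairs with both members at 1 CPM or more (left, in %) and median absolute log2 level ratio of such pairs (right), by library, with close divergent pairs as filled circles, far divergent pairs as open squares and each cultivar in its own colour. The close shares lie between 18.4% and 22.1%, all above the far shares, and the close ratios lie below the far ones in each library, by 0.02 in Palau 10 replicate 3.

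Among the cultivars, the close share averaged 19.2% ± 0.66 in Sam-07, 18.7% ± 0.50 in Palau 10 and 20.9% ± 1.60 in Niue (SD, n = 3 each). Niue had both the 2 highest values and 1 that fell within the Sam-07 range. The 2 highest were in replicates 3 and 4, the libraries with the fewest fragments (6083660 and 5468567). Their far shares were also the highest (11.7% and 12.5%), and the part of depth was not tested. No difference among cultivars passed the threshold (exact permutation p = 0.13 over 280 assignments, adjusted over 4 values 0.26, smallest possible 0.0036). The close minus far difference averaged 7.90 ± 1.06 percentage points in Sam-07, 7.49 ± 0.18 in Palau 10 and 9.15 ± 1.02 in Niue, and also missed it (exact permutation p = 0.079, adjusted 0.26).

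Joint expression did not fall steadily with the gap below 1000 bp. Both members were expressed in 36 of 141 pairs with gaps up to 250 bp (25.5%, exact interval 18.6 to 33.6) and in 21 of 110 pairs at 251 to 500 bp (19.1%, 12.2 to 27.7). The share was 13.95% (12 of 86, 7.42 to 23.1) at 501 to 750 bp and 20.2% (25 of 124, 13.5 to 28.3) at 751 to 1000 bp. These intervals overlap. Just beyond the limit, above 1000 and up to 2000 bp, it was 21.2% of 438 pairs (17.5 to 25.4), a value within the range of the close bins. It was 15.6% up to 5000 bp, 13.9% up to 10000 bp, 14.5% up to 20000 bp, 11.9% up to 50000 bp and 5.02% of the 1256 pairs over 50000 bp apart.

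**Figure D3:**
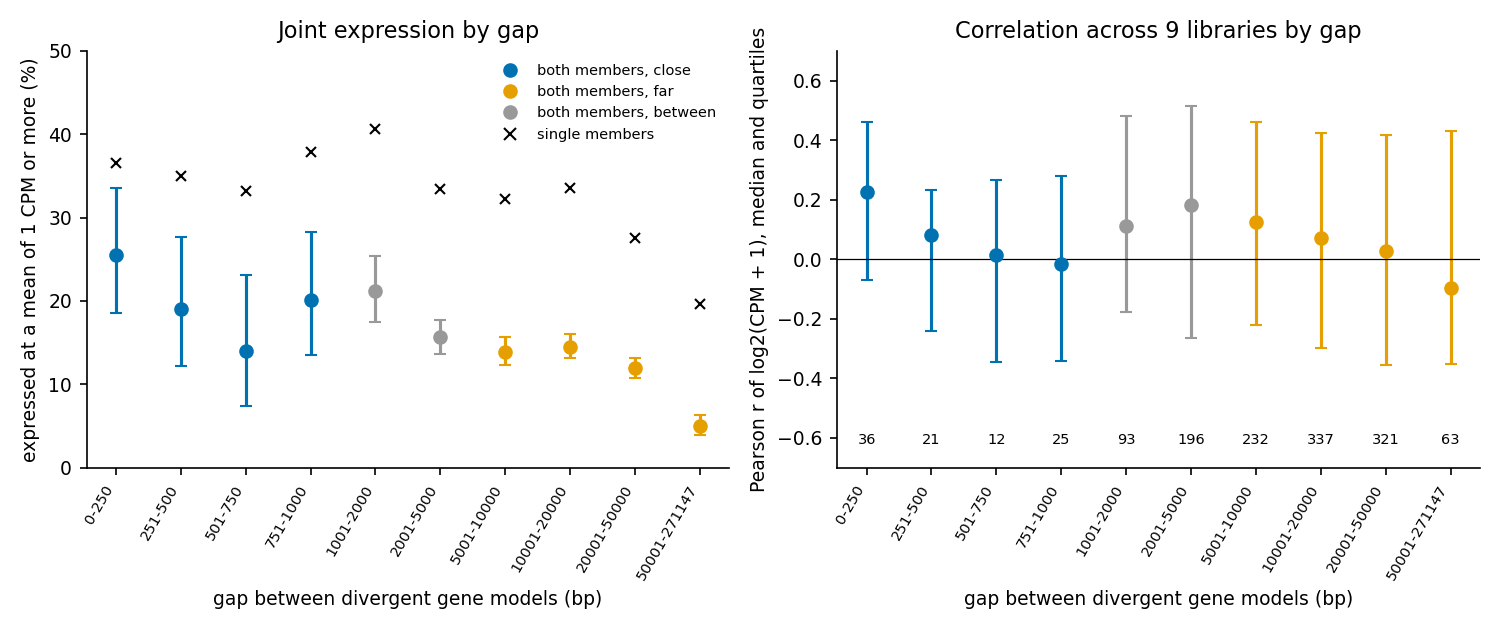
Share of divergent pairs with both members expressed and share of members expressed, in % with exact 95% intervals for the pairs (left), and median Pearson r across 9 libraries with quartiles for pairs with both expressed (right), by gap. The joint share is 25.5% at gaps up to 250 bp and 5.02% at gaps over 50000 bp, and the median r lies between -0.10 and 0.23 in all bins.

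Members of pairs with both expressed were longer than the others, a property the rule did not use. Their median exon length was 1444 bp in 5 exons, against 996 bp in 4 exons in pairs with 1 expressed member and 648 bp in 3 exons in pairs with none. Within the 143 pairs with 1 expressed member, the expressed one was longer in 115, with medians of 1594 bp for the expressed member and 648 bp for its neighbour. A longer gene model collects more fragments at the same level, and the part of length in these calls was not tested. The expressed member was the left one in 75 of these pairs and the right one in 68.

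The close divergent neighbour of a strongly expressed gene could be without a fragment. In 53 of the 143 pairs (37.1%) the other member had 0 fragments in all 9 libraries, and in 33 of them the expressed member averaged at least 10 CPM. Over all gene models, 51.3% had 0 fragments in all 9 libraries. A count of 0 allows up to 3 fragments over the 9 libraries, or 0.0269 CPM, and fragments that mapped to several places were not counted. The pair with the highest expressed member was Taro_050989 and Taro_050990, 594 bp apart on TARO_scaffold_007904. Taro_050990 (plus strand, 45910 to 47998, 6 exons) had 2676, 2311 and 1889 CPM in Sam-07, 2387, 3065 and 2069 CPM in Palau 10, and 3395, 2737 and 1738 CPM in Niue. Its values overlapped between the cultivars, while Taro_050989 (minus strand, 35375 to 45315, 2 exons) had no fragment. Per kb of exon, Taro_050990 was at least 21750.1-fold higher than its neighbour. In the pair Taro_011830 and Taro_011831 (gap 337 bp, TARO_scaffold_000452), the right member averaged 332.3 ± 104.8 CPM (SD, n = 9), at least 3604-fold above the left. In Taro_038225 and Taro_038226 (gap 299 bp, TARO_scaffold_003409), the left member averaged 172.6 ± 56.1 CPM, at least 1206-fold above the right.

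In the 94 pairs with both members expressed, the levels of the 2 members differed by a median of 2.95-fold per kb of exon, against 3.68-fold in far divergent pairs. On the log2(CPM per kb + 0.1) scale the median absolute difference was 1.56 (quartiles 0.85 and 2.60) in close pairs and 1.88 (0.85 and 3.15) in far pairs. The lower quartiles were alike, and the sets parted at large ratios: 8 close pairs (8.51%) exceeded 16-fold, against 149 far pairs (15.6%). Within 2-fold were 30 close pairs (31.9%) and 28.9% of the far pairs. The left member was higher in 48 close pairs and the right in 46, and the shorter member was higher per kb in 53.

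By library, the median absolute log2 ratio of close pairs was 1.77, 1.57 and 1.74 in Sam-07 replicates 1, 2 and 3. The Palau 10 values for replicates 1, 2 and 3 were 1.68, 1.64 and 1.75, the Niue values for replicates 2, 3 and 4 were 1.56, 1.89 and 1.72, and the cultivars overlapped. The far values ran from 1.76 to 2.03. The difference, close minus far, averaged -0.21 ± 0.10 (SD, n = 9) and was below 0 in 9 of 9 libraries (exact two-sided sign-flip permutation p = 0.0039, the smallest possible). With close pairs limited to gaps of at most 500 bp it averaged -0.02 ± 0.11 (exact permutation p = 0.58), and no longer passed. All libraries share the same gene models, so these tests cover the spread between libraries and not that between pairs. The median ratio by gap was 1.96 up to 250 bp, 1.503 at 251 to 500 bp, 1.07 at 501 to 750 bp, a bin of only 12 pairs, and 1.29 at 751 to 1000 bp. The value up to 250 bp lay above the far median of 1.88. Among cultivars the close ratio averaged 1.69 ± 0.11 in Sam-07, 1.69 ± 0.05 in Palau 10 and 1.72 ± 0.16 in Niue (SD, n = 3 each; exact permutation p = 0.95, adjusted 0.95).

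The ratio depended on the level of the lower member in both sets. With the lower member at 1 to 5 CPM it was 2.22 in 40 close pairs and 2.85 in 349 far pairs. At 5 to 20 CPM it was 1.29 in 35 close pairs and 1.74 in 382 far pairs, and over 20 CPM 1.11 in 19 close pairs and 1.27 in 222 far pairs. The close value lay below the far value in each stratum. The median level of the lower member was 7.26 CPM in close and 8.49 CPM in far pairs.

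The widest ratio belonged to Taro_026814 and Taro_026815, 751 bp apart on TARO_scaffold_001641. The left member (minus strand, 78409 to 82002, 6 exons) averaged 0.832 CPM per kb and the single-exon right member (plus strand, 82754 to 83329) 105 CPM per kb, a 126.5-fold difference. The right member had 51.3, 48.2 and 94.5 CPM in Sam-07, 88.5, 59.0 and 27.9 CPM in Palau 10, and 62.03, 57.1 and 57.2 CPM in Niue. The left member had at most 3.05 CPM, its highest value, in Palau 10 replicate 3, so the order of the members was the same in each library. In Taro_035182 and Taro_035183, 195 bp apart on TARO_scaffold_002851, the left member (267 bp of exon) averaged 886 CPM per kb, 54.1-fold above the right at 16.4 CPM per kb. In Taro_033382 and Taro_033383 (gap 500 bp, TARO_scaffold_002544) the left member averaged 68.2 CPM per kb, 36.2-fold above the right at 1.89 CPM per kb. In 6 of the 8 pairs that exceeded 16-fold, the shorter member was the higher one per kb.

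The pairs with the highest level of the lower member were Taro_021397 and Taro_021398, Taro_038191 and Taro_038192, and Taro_038620 and Taro_038621. In the first (gap 475 bp, TARO_scaffold_001095), another gene model overlapped the span. The left member had 313, 121 and 178 CPM in Sam-07, 138, 120 and 150 CPM in Palau 10, and 112, 146 and 138 CPM in Niue. The right one had 163, 201 and 181 CPM in Sam-07, 196, 211 and 75.9 CPM in Palau 10, and 233, 215 and 195 CPM in Niue. The left member was highest in Sam-07 replicate 1 and the right member lowest in Palau 10 replicate 3, with the cultivars overlapping for both. Per kb the right member was 1.59-fold higher on average. Taro_038191 and Taro_038192 (gap 970 bp, TARO_scaffold_003400) averaged 125 and 41.3 CPM per kb.

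Taro_038620 and Taro_038621 lay 962 bp apart on TARO_scaffold_003478, with another gene model over their span. Taro_038620 (minus strand, 32529 to 49882, 15 exons) had 203, 278 and 299 CPM in Sam-07, 346, 368 and 62.3 CPM in Palau 10, and 68.8, 64.5 and 61.0 CPM in Niue. Sam-07 and 2 Palau 10 libraries lay above Niue, and Palau 10 replicate 3 lay within the Niue range. Taro_038621 (plus strand, 50845 to 54255, 5 exons) had 79.7, 76.6 and 84.8 CPM in Sam-07, 95.05, 83.1 and 81.6 CPM in Palau 10, and 108, 103 and 89.7 CPM in Niue, and the lowest Niue value exceeded all others except that of Palau 10 replicate 1. Neither was called among cultivars (edgeR adjusted p = 0.21 and 0.65). Without Palau 10 replicate 3, Taro_038620 was called.

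Members of close pairs varied together across the 9 libraries weakly, at values near those of far pairs. The median Pearson r of log2(CPM + 1) was 0.09 (quartiles -0.25 and 0.43) over the 94 close pairs and 0.06 (-0.31 and 0.42) over the 953 far pairs, and r was above 0 in 57.4% of close and 54.98% of far pairs. All pairs share the same 9 libraries and their depths, so these values are descriptions. The difference of 0.03 turned to -0.01 without Sam-07 replicate 2 and to -0.02 without Sam-07 replicate 3. With deviations from the cultivar means, the medians were 0.15 in close and 0.08 in far pairs. Scaling to the library totals alone, without the TMM factors, gave 0.24 in close and 0.16 in far pairs. Same-strand neighbours at most 1000 bp apart had a median r of 0.49, and convergent ones 0.00.

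By gap, the median r was 0.23 in the 36 pairs up to 250 bp (quartiles -0.07 and 0.46), 0.08 in the 21 pairs at 251 to 500 bp, 0.02 in the 12 pairs at 501 to 750 bp and -0.02 in the 25 pairs at 751 to 1000 bp. Above 1000 and up to 2000 bp it was 0.11, and from there up to 5000 bp 0.18, within the range of the close bins. By level, it was 0.11 with the lower member at 1 to 5 CPM and 0.16 at 5 to 20 CPM. In the 19 close pairs over 20 CPM it was -0.27. The far values were 0.04, 0.09 and 0.13 in the same order. With deviations from the cultivar means the medians were 0.11, 0.25 and -0.02 in close pairs, and 0.05, 0.12 and 0.07 in far pairs. An r of at least 0.7 was found in 11 close pairs (11.7%) and 8.71% of far pairs, and an r of -0.7 or lower in 0 close pairs and 39 far pairs (4.09%). The 11 had gaps of 38 to 1000 bp (median 358 bp, 5 at most 250 bp), and in 10 of them r of the deviations within cultivars was at least 0.5.

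**Figure D4:**
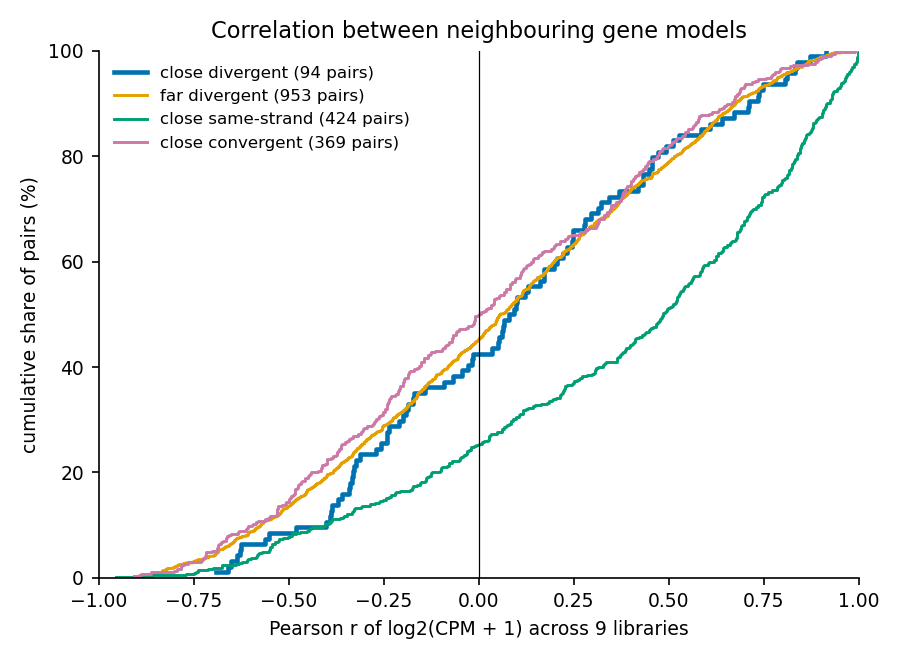
Cumulative share of pairs with both members expressed (y axis, in %) against the Pearson r of log2(CPM + 1) across 9 libraries, for close divergent, far divergent, close same-strand and close convergent pairs. The close divergent curve runs along the far divergent one, with medians of 0.09 and 0.06, while same-strand pairs lie to the right with a median of 0.49.

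Among pairs with both members at 5 CPM or more, the highest r was in Taro_012391 and Taro_012392, 107 bp apart on TARO_scaffold_000484 (r = 0.87, rho = 0.78, within cultivars 0.78). Taro_012391 (minus strand, 198077 to 200899, 5 exons) had 2.26, 1.78 and 5.32 CPM in Sam-07, 9.40, 19.2 and 30.8 CPM in Palau 10, and 12.0, 0.649 and 5.996 CPM in Niue. Taro_012392 (plus strand, 201007 to 204962, 3 exons) had 4.84, 9.68 and 9.25 CPM in Sam-07, 8.65, 15.7 and 34.6 CPM in Palau 10, and 11.3, 4.22 and 7.71 CPM in Niue. Both were highest in Palau 10 replicate 3, next in Palau 10 replicate 2, and lowest in Niue replicate 3, and neither was called among cultivars (edgeR adjusted p = 0.32 and 0.41). Per kb the right member was 1.42-fold higher.

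Next came Taro_026849 and Taro_026850 (gap 613 bp, TARO_scaffold_001645, r = 0.84, rho = 0.67), which averaged 8.61 and 7.53 CPM per kb. Taro_026849 had 16.4, 23.4 and 17.4 CPM in Sam-07, 22.5, 18.8 and 15.2 CPM in Palau 10, and 18.9, 17.9 and 19.9 CPM in Niue. Taro_026850 had 7.41, 13.6 and 8.998 CPM in Sam-07, 10.5, 10.6 and 5.64 CPM in Palau 10, and 8.98, 11.4 and 10.5 CPM in Niue. Both members were highest in Sam-07 replicate 2 and lowest in Palau 10 replicate 3, and the cultivars overlapped. Taro_045333 and Taro_045334 (gap 781 bp, TARO_scaffold_005308, 20 and 16 exons) had r = 0.81 and rho = 0.55, with 15.8 and 10.2 CPM per kb.

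The lowest r was in Taro_028061 and Taro_028062, 181 bp apart on TARO_scaffold_001789 (r = -0.69, rho = -0.73, within cultivars -0.69, and r = -0.29 with library size only). Taro_028061 (minus strand, 59284 to 71050, 6 exons) had 11.9, 8.65 and 15.3 CPM in Sam-07, 11.2, 9.41 and 8.62 CPM in Palau 10, and 10.3, 9.42 and 8.14 CPM in Niue. Taro_028062 (plus strand, 71232 to 81018, 5 exons) had 35.4, 68.0 and 31.4 CPM in Sam-07, 35.3, 37.7 and 85.0 CPM in Palau 10, and 49.2, 60.7 and 43.0 CPM in Niue. The right member was highest in Palau 10 replicate 3 and Sam-07 replicate 2, where the left one was in its lower range. In Taro_016620 and Taro_016621 (gap 591 bp, TARO_scaffold_000739) r was -0.65, and -0.39 without Sam-07 replicate 2, and the left member was 14.9-fold higher per kb. In Taro_006707 and Taro_006708 (gap 968 bp, TARO_scaffold_000202) r was -0.64, 0.07 with library size only and -0.42 without Sam-07 replicate 3.

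Among the pairs with both members expressed, the smallest gaps were 18, 36 and 38 bp. Taro_011181 and Taro_011182, 18 bp apart on TARO_scaffold_000416, averaged 0.822 and 9.14 CPM per kb (r = 0.47). The left member (a single exon, minus strand, 60563 to 62479) had 1.13, 3.04 and 0.887 CPM in Sam-07, 1.56, 1.27 and 1.19 CPM in Palau 10, and 1.94, 1.46 and 1.71 CPM in Niue. The right member (plus strand, 62498 to 68220, 10 exons) had 13.5, 21.7 and 8.36 CPM in Sam-07, 5.73, 9.81 and 19.3 CPM in Palau 10, and 14.9, 17.5 and 19.3 CPM in Niue. Both were highest in Sam-07 replicate 2, and the right member was above the left in each library. Taro_012860 and Taro_012861 (gap 36 bp, TARO_scaffold_000506, another gene model over the span) averaged 0.774 and 22.6 CPM per kb with r = 0.49. Taro_013563 and Taro_013564 (gap 38 bp, TARO_scaffold_000546) averaged 2.22 and 9.03 CPM per kb with r = 0.71. In all 3 of these pairs the right member was the higher one per kb, by 4.08-fold to 29.2-fold.

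Few members of close pairs differed among the cultivars, in a share near that of all gene models. Of 360 members that passed the filter on low counts, 8 were called (adjusted p under 0.05 in the quasi-likelihood F-test of edgeR), which is 2.22%, against 2.72% of all 18865 gene models tested and 2.29% of 4897 members of far divergent pairs. At an unadjusted p under 0.05 were 46 members (12.8%), against 12.1% of all gene models tested. The count of 8 fell to 4 without Sam-07 replicate 1, Sam-07 replicate 3 or Palau 10 replicate 2, to 3 without Palau 10 replicate 1, and to 5 without Niue replicate 3 or 4. In these fits 273 to 341 of all gene models tested were called, against 513 with all libraries. Taro_008261, Taro_015178 and Taro_037335 were called whichever library was left out. DESeq2 called 18 of the 360 members, including all 8, and 1133 of all 18865 gene models tested. The 8 members lay in 7 pairs. Both members were called in 1 pair, Taro_015178 and Taro_015179, out of 107 close pairs with both tested. Both were called in 2 of 1081 far pairs with both tested, and in 0.409% of 8558 neighbouring pairs of any orientation.

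Taro_015178 and Taro_015179 lay 189 bp apart on TARO_scaffold_000649 and shared their cultivar pattern, highest in Palau 10 and at or near 0 in Niue. Taro_015178 (minus strand, 355016 to 360470, 7 exons) had 1.34, 1.59 and 0.760 CPM in Sam-07, 11.8, 6.28 and 9.81 CPM in Palau 10, and 0.0646, 0 and 0 CPM in Niue. Taro_015179 (plus strand, 360660 to 361973, 4 exons) had 0.103, 0.234 and 0.253 CPM in Sam-07, 2.61, 1.27 and 3.45 CPM in Palau 10, and 0 fragments in the 3 Niue libraries. For both members the measured values of the cultivars did not overlap, and the libraries fell into separate groups by cultivar, so no pooled r is given. The Sam-07 values of Taro_015179 rest on 1, 5 and 2 fragments. A count of 0 allows up to 0.194, 0.487 and 0.642 CPM in Niue replicates 2, 3 and 4, so Sam-07 and Niue are not shown to differ for this member. Among cultivars the edgeR adjusted p was 0.0012 for the left and 0.013 for the right member, which was lost without Palau 10 replicate 1, leaving 0 pairs with both members called.

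The fragments of Taro_015178 pooled over libraries gave a ratio of 245.8 between Palau 10 and Niue (95% counting interval 43.9 to 9731), which rests on 1 fragment in Niue. Taro_015179 was at least 21.5-fold higher in Palau 10 than in Niue, whose floor was 3 fragments over the 3 libraries, or 0.114 CPM. Sam-07 was 6.87-fold lower than Palau 10 for Taro_015178 (5.16 to 9.33) and 11.9-fold lower for Taro_015179 (5.86 to 28.3). In edgeR the Sam-07 to Palau 10 adjusted p was 0.014 and 0.049 for these members. Between Sam-07 and Niue, Taro_015178 passed (edgeR adjusted p = 0.016) and Taro_015179, with 8 fragments in Sam-07, did not (0.29). Per kb the left member was 3.12-fold higher over the 9 libraries, and the level ratio of the members did not pass among cultivars (limma adjusted p = 0.08).

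In the 6 other pairs with a called member, the partner was not called. It was tested in 3 of them. Taro_008261 (TARO_scaffold_000269, minus strand, 54174 to 56724, 3 exons) had 2.98, 3.65 and 4.44 CPM in Sam-07, 0.934, 0.668 and 0.663 CPM in Palau 10, and 7.17, 6.01 and 7.07 CPM in Niue. It was lowest in all 3 Palau 10 libraries and highest in all 3 Niue libraries, with no overlap (edgeR adjusted p = 0.0031). Its log2 fold change was -3.14 (SE 0.32) between Palau 10 and Niue and 2.27 (SE 0.31) between Sam-07 and Palau 10. Its partner 63 bp away, Taro_008262, had 2.98, 5.33 and 3.42 CPM in Sam-07, 3.86, 5.61 and 5.90 CPM in Palau 10, and 6.01, 5.36 and 6.42 CPM in Niue. The partner's cultivars overlapped (edgeR adjusted p = 0.65).

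Taro_037335 (TARO_scaffold_003236, minus strand, 161421 to 162065, 2 exons) had 1.34, 1.96 and 2.15 CPM in Sam-07, 0.0622, 0.134 and 0.133 CPM in Palau 10, and 1.81, 1.30 and 1.71 CPM in Niue. Palau 10 lay below the other cultivars, which overlapped (edgeR adjusted p = 0.0063). Pooled fragments were 15.4-fold lower in Palau 10 than in Niue (95% counting interval 6.13 to 49.9). Its partner 980 bp away, Taro_037336, had 8.75, 9.54 and 6.59 CPM in Sam-07, 9.34, 9.21 and 8.89 CPM in Palau 10, and 10.0, 11.4 and 11.3 CPM in Niue (edgeR adjusted p = 0.66). Niue lay above the other cultivars there, without passing the test.

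Taro_014108 (TARO_scaffold_000579, 8 exons) had 0.103, 0.0935 and 0 CPM in Sam-07, 1.74, 1.74 and 2.52 CPM in Palau 10, and 0.129, 0.162 and 0.857 CPM in Niue (edgeR adjusted p = 0.032). Its partner 477 bp away, Taro_014109, had 0, 0.140 and 0 CPM in Sam-07, 0.373, 0.801 and 0.531 CPM in Palau 10, and 0.905, 0.812 and 0.428 CPM in Niue (edgeR adjusted p = 0.21). Both had their lowest values in Sam-07, near the floor. The left member had 3 fragments there and 7 in Niue. Sam-07 against Niue did not pass for either member (edgeR adjusted p = 0.57 for the left and 0.19 for the right). The left member was higher in each Palau 10 library than in any Niue library, whereas the right member overlapped between them.

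The other 3 called members had partners with too few fragments to test. Taro_006381 (TARO_scaffold_000188, 4 exons) had 1.34, 2.71 and 0.887 CPM in Sam-07 and 0 fragments in Palau 10 and in Niue (edgeR adjusted p = 0.049). Pooled fragments in Sam-07 were at least 30.8-fold above Palau 10 and at least 17.5-fold above Niue, though neither comparison passed (edgeR adjusted p = 0.063 and 0.13). The partner of Taro_006381, Taro_006382, 705 bp away, had 0 fragments throughout. Taro_031090 (TARO_scaffold_002180, 6 exons) had 0 fragments in Sam-07, 1.31, 1.20 and 0.995 CPM in Palau 10, and 0 fragments in Niue (edgeR adjusted p = 0.036), and its partner 406 bp away had 0 fragments. Palau 10 did not pass against Niue (edgeR adjusted p = 0.068) or against Sam-07 (0.0503) for Taro_031090. Taro_030964 (TARO_scaffold_002162, 7 exons) had 0.926, 0.421 and 0.634 CPM in Sam-07, 0 fragments in Palau 10, and 0.840, 3.25 and 3.64 CPM in Niue (edgeR adjusted p = 0.029). Its partner 82 bp away had 1 fragment in each of 2 Palau 10 libraries and none elsewhere. A gene model without a fragment is not shown to be silent or missing, since fragments that differ from the assembly may not map.

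**Figure D5:**
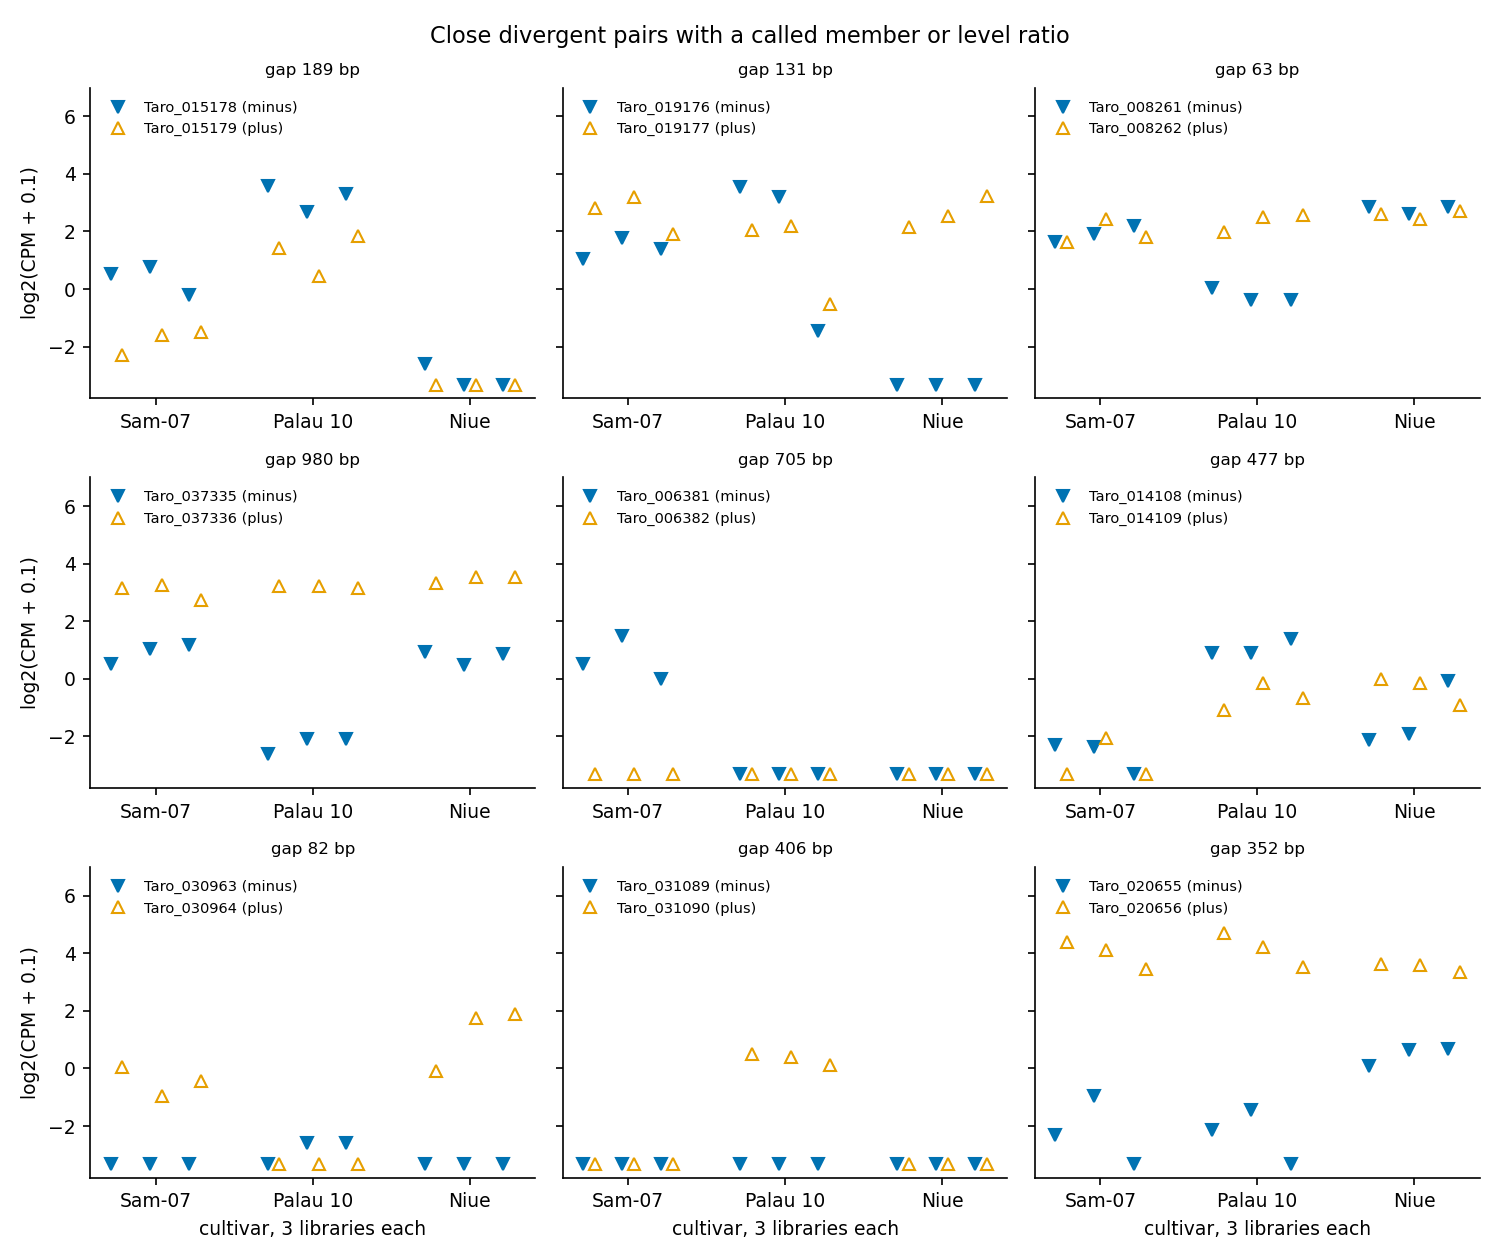
Levels by library, in log2(CPM + 0.1), of the left and right members of the 9 close divergent pairs with a member called among cultivars or a called level ratio, 1 panel per pair. In Taro_015178 and Taro_015179 both members are highest in Palau 10 and at or near 0 in Niue, and in Taro_008261 and Taro_008262 the left member alone is lowest in Palau 10.

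By contrast, 2 members were higher in Palau 10 than in Niue (Taro_015178 and Taro_015179; 0.625% of all gene models tested were), and 3 were lower (Taro_008261, Taro_030964 and Taro_037335; 1.18%). Between Sam-07 and Niue, 1 member was higher (Taro_015178; 0.461%) and 0 lower (0.758%), with 15 members lower at an unadjusted p under 0.05 in edgeR and 3 lower in DESeq2. Between Sam-07 and Palau 10, 2 members were higher (Taro_008261 and Taro_037335; 0.848%) and 3 lower (Taro_014108, Taro_015178 and Taro_015179; 0.885%). The median log2 fold change of the 360 tested members was -0.04, 0.02 and 0.06 for Palau 10 over Niue, Sam-07 over Niue and Sam-07 over Palau 10, against 0.02, 0.03 and 0.02 for all gene models tested. Between Palau 10 and Niue the count of 5 became 3 without Palau 10 replicate 1 and 8 without Palau 10 replicate 3. Between Sam-07 and Niue it became 0 without Sam-07 replicate 1 or any 1 Niue library (23 to 34 members at an unadjusted p under 0.05 in edgeR), 4 without Sam-07 replicate 2 and 3 without Palau 10 replicate 3. Between Sam-07 and Palau 10 the 5 became 2 without Sam-07 replicate 1 or 3 or Palau 10 replicate 1, and 3 without Sam-07 replicate 2 or Palau 10 replicate 2 or 3. Over all gene models, the fits without 1 library called 273 to 662 among the 3 cultivars, against 513 with all libraries. Shares over all gene models by comparison are not given for these fits or for DESeq2. The changed counts thus describe no trait of close pairs. The comparisons share libraries, so their counts are not independent.

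Across the 107 pairs with both members tested, members of close pairs changed in the same direction between Palau 10 and Niue in 46.7%, against 50.4% of 1081 far pairs. The share was 46.7% between Sam-07 and Niue, against 51.0% of far pairs, and 51.4% between Sam-07 and Palau 10, against 51.6% of far pairs. Across pairs, which are not independent replicates and share their libraries, the log2 fold changes of the members had r = 0.36, 0.32 and 0.43 for the 3 comparisons in the same order. Leaving out Taro_015178 and Taro_015179 alone gave -0.11, 0.10 and 0.31, and leaving out each pair with a called member gave -0.13, -0.02 and 0.09. In far pairs r was 0.04, 0.04 and 0.09.

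The level ratio of the members differed among cultivars in 4 of 107 close pairs, or 3.74% (limma F-test over 8558 neighbouring pairs, adjusted p under 0.05), against 2.62% of neighbouring pairs of any orientation and 3.61% of far pairs. They were Taro_008261 and Taro_008262 (limma adjusted p = 0.011), Taro_037335 and Taro_037336 (0.023), Taro_019176 and Taro_019177 (0.0076), and Taro_020655 and Taro_020656 (0.029). The count was 2 without Sam-07 replicate 3, Palau 10 replicate 1 or Niue replicate 4, and 1 without Palau 10 replicate 2. With 2 CPM added in place of 0.5, Taro_037335 and Taro_037336 (limma adjusted p = 0.16) and Taro_020655 and Taro_020656 (0.18) lost their calls. Scaling factors cancel within a pair, so this test does not depend on the TMM factors except through the added constant.

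In Taro_019176 and Taro_019177, 131 bp apart on TARO_scaffold_000916, the ratio shifted although neither member was called (edgeR adjusted p = 0.16 and 0.66). Taro_019176 (minus strand, 159292 to 161462, 3 exons) had 1.95, 3.32 and 2.53 CPM in Sam-07, 11.5, 9.08 and 0.265 CPM in Palau 10, and 0 fragments in Niue. Taro_019177 (plus strand, 161594 to 164457, 3 exons) had 6.997, 9.07 and 3.68 CPM in Sam-07, 4.05, 4.47 and 0.597 CPM in Palau 10, and 4.39, 5.68 and 9.21 CPM in Niue. The left member was absent from the Niue counts alone, and both members were lowest among the Palau 10 libraries in replicate 3. The right over left ratio changed by -4.34 on the log2 scale (SE 0.56) between Palau 10 and Niue (limma adjusted p = 0.0045). Niue had no fragment of the left member, so the added constant sets the size of this change, which was -2.61 with 2 CPM added in place of 0.5. In Taro_020655 and Taro_020656 (gap 352 bp, TARO_scaffold_001030), the left member had 0.103, 0.421 and 0 CPM in Sam-07, 0.124, 0.267 and 0 CPM in Palau 10, and 0.969, 1.46 and 1.499 CPM in Niue. The right member had 20.8, 17.2 and 10.9 CPM in Sam-07, 26.0, 18.7 and 11.5 CPM in Palau 10, and 12.3, 11.9 and 10.1 CPM in Niue. The left member was higher in Niue than in the other cultivars without overlap, whereas the right member overlapped between all 3.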

How the data were processed

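RNA of 9 leaf libraries was measured with a stranded kit, per the labels' protocols, after CTAB extraction from 4 g of leaf and drying for 40 h. The submitters' processing notes list bcl2fastq 1.8.4, Trimmomatic 0.33, STAR (given as 3.5.0a) and Subread 1.4.6. The deposited values are raw counts of fragments per gene model over exons, made with featureCounts 1.4.6-p4 without a strand setting, per the file headers, and were used as deposited. The build is not named in the sources used here, and coordinates count from 1 on the scaffolds of the files. No genome was used, so no promoter sequence is shown.

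Cultivar and replicate came from the labels. Pairs were built from the coordinates of the count files. CPM used TMM factors, and 3 fragments corresponded to 0.14 to 0.642 CPM per library. Differences were tested with edgeR 4.0.16 in R 4.3.3 (glmQLFit and glmQLFTest, filterByExpr with a minimum count of 10 and a minimum total of 15, biological coefficient of variation 0.44) on all 9 libraries with cultivar as the only term. The level ratio was tested with limma 3.58.1 on log2 of (CPM + 0.5) of the right over the left member. Calls needed a Benjamini-Hochberg adjusted p under 0.05. Standard errors of edgeR fold changes were derived from the F statistic. Both fits were also run on simulated data, and no outcome of those runs is given here. By a chi-square test, the counts of replicate libraries differed by more than sampling noise. Alternatives were DESeq2 1.42.0, other scalings, filters, pseudocounts, gap limits and expression limits, a replicate block and leaving out each library.

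The members, the measures and the rules for named pairs were chosen with earlier results of these data known. Named were the pair with both members called, the 3 pairs with the highest lower member, the 3 highest and 3 lowest r at 5 CPM or more, the 3 widest ratios, the 3 highest members beside a neighbour with 0 fragments, the 3 smallest gaps with both expressed, the 3 lowest adjusted p of the ratio and the pairs beside the limit. A rule for pairs with both members undetected in a cultivar and both at 1 CPM or more in another found none. Pairs with a called member or a called ratio outside these rules were named after their values were seen.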

Additional observations from a re-analysis of the deposited data

How the results depend on the processing

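The joint share of close pairs was 11.7% with expression set at 5 CPM (7.61% in far pairs) and 19.7% to 20.8% when each library was left out. The median absolute log2 ratio of close pairs was 1.23 at 5 CPM, 1.73 at 0.5 CPM and 1.37 with 1 added in place of 0.1, staying below the far value in each. With gaps up to 500 bp, 251 pairs remained, with a ratio of 1.68, -0.19 from the far pairs, and the per-library difference of -0.020 no longer passed (exact permutation p = 0.58). Leaving out each library gave ratios of 1.51 to 1.64, differences of -0.37 to -0.24, a median r of 0.05 to 0.12 and differences in r of -0.02 to 0.05. The median r of close pairs was 0.24 with library size only and -0.27 over 20 CPM (-0.40 from far pairs). Over 20 CPM, deviations from the cultivar means gave -0.02 in close and 0.07 in far pairs.

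Counts of called members were least stable. Among cultivars the count of 8 became 18 of 360 members with DESeq2, which called 1133 of all 18865 gene models tested. It became 0 of 205 in edgeR when at least 10 CPM in 3 libraries was required, with 18 members at an unadjusted p under 0.05. That filter kept 11596 gene models in all, of which 127 were called. The 8 members fell below its limit, so they were not retested. DESeq2 called 15, 9 and 12 members for Palau 10 over Niue, Sam-07 over Niue and Sam-07 over Palau 10, and the 10 CPM filter 0 for each in edgeR (18, 14 and 13 unadjusted), with 0 pairs with both members called. The ratio was then called in 0 of 38 pairs (limma, 1 unadjusted). The 4 pairs called by ratio in the main fit also fell below the limit and were not among the 38. Leaving out each library gave 3 to 7 called members, with 273 to 662 called over all gene models tested, and 0 to 1 pairs with both called. It gave 3 to 8, 0 to 4 and 2 to 6 members in the 3 comparisons, and 1 to 5 pairs by ratio. For these fits and for DESeq2, shares over all gene models by comparison are not given. Their counts by comparison thus describe no trait of close pairs.

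With the replicate number as a block, 0 members were called among cultivars (edgeR, 16 unadjusted) and 0 in each comparison (23, 13 and 20). Then 0 pairs had both members called, and 0 ratios were called (limma, 8 unadjusted). Over all gene models this edgeR fit called 25 of 18865, against 513 without the block. The labels do not say that a number pairs libraries. The 7 same-numbered pairs of libraries had correlations of -0.48 to 0.42, 3 of them over 0.1, and 3 of 8 libraries correlated best with one of their own number. Niue replicate 4 has no such partner, so the block fits that library exactly and leaves fewer degrees of freedom for the spread.

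Each of the 8 called members was taken under each alternative that tested it, which gave 104 adjusted p-values among cultivars. Of these, 42 lost their call. For the 4 pairs called by ratio, 19 of 44 such values did, and the cause was not tested. For Taro_038620 and Taro_038621, r was -0.48, and 0.39 within cultivars. In the shallowest library, 0 fragments allow a level of up to 0.642 CPM.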
